A study of Rattus norvegicus with 8 samples.

Results

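The 10 genes described here code for the D type cyclins, their kinase partners CDK4 and CDK6, and the inhibitors of cyclin dependent kinases. They are Ccnd1, Ccnd2, Ccnd3, Cdk4, Cdk6, Cdkn1a, Cdkn1b, Cdkn1c, Cdkn2c and Cdkn2d. They were chosen by name on an Agilent Whole Rat Genome array, a slide of 60-base DNA probes read in 1 color. All 10 were found, out of 13567 named genes, and 17 of the array's 41012 probes carry their names. Of these 17 probes, 16 were well above background on all 8 arrays by the scanner software's flag. The exception was the second probe of Cdkn1a, which was above background on none.

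The D type cyclins bind CDK4 and CDK6, and the complexes phosphorylate the retinoblastoma protein, which releases E2F factors and lets a cell pass from G1 into S phase. INK4 inhibitors, here Cdkn2c and Cdkn2d, bind CDK4 and CDK6 directly, while CIP/KIP inhibitors, here Cdkn1a, Cdkn1b and Cdkn1c, bind cyclin and kinase complexes. In the thymus, cyclin D3 is known for its part in the expansion of immature thymocytes.

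Thymocytes, the immature T cells of the thymus, came from male Sprague-Dawley rats without adrenal glands, so the cells of both groups came from animals that lacked their own glucocorticoid source. Thymi of 3 rats were pooled for a preparation. The Control group (4 arrays) was cultured for 6 hours without hormone and the Dex group (4 arrays) for 6 hours with 100 nM of dexamethasone, a synthetic glucocorticoid. The labels number the replicates 1 to 4 and do not say which arrays came from separate preparations, so p-values measure only the spread between these arrays, which may in part be technical. The question was which genes differ in expression between Dex and Control.

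Levels are log2 signals after quantile normalization, which gives all arrays the same distribution of values. A level has no scale in common with that of another probe, so genes were not ranked by level. The brightest probe stands for a gene, and a difference was called at a limma p adjusted over all 41012 probes below 0.05. By this rule 319 probes, or 0.778% of all, differed. The known glucocorticoid responders Tsc22d3 and Fkbp5 were higher by 3.59 and 1.73 on the log2 scale (limma adjusted p = 0.000153 and 0.00133). Per1 was above all Control arrays on every Dex array, with a difference of 0.73 that was not called (adjusted p = 0.270). Fewer probes were above background on Control 1 (28658), Dex 1 (26471) and Dex 2 (24903) than on the other 5 arrays (33147 to 34473). Leaving out Dex 1 and Dex 2 was chosen after seeing the data, and that fit called 7143 of the 41012 probes.

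Of the 14 thymocyte markers measured, 13 had a value above background on every array, and their summed signal was 317887 to 351316 on Control and 249451 to 350123 on Dex arrays. Cd8b was left out of the sum because it has no value on Control 1. None of the 14 was called, 11 were lower and 3 higher in Dex, and their median difference of -0.19 was close to the -0.20 of the 10 genes described here. At an unadjusted p below 0.05, 4 were lower and 1 was higher, where 5.63% and 6.45% of all named genes were. All Dex arrays lay below all Control arrays for 3 and above them for 1 (Cd8b, 0.52), against 5.69% and 5.76% of all named genes. The T cell factor Bcl11b was the nearest to a call (-0.87, limma adjusted p = 0.0546). Of 10 macrophage markers none was called (Mrc1 came closest, 2.12 with an adjusted p of 0.0870). Of these 10, 6 were higher and 4 lower, and at an unadjusted p below 0.05, 3 were higher (C1qb, C1qc and Mrc1) and none was lower. All Dex arrays lay above all Control arrays for 2 of them, C1qc and Mrc1, and below for none. Their sum was 4470 to 6172 on Control and 4360 to 8802 on Dex arrays. The 4 measured B cell markers summed to 341 to 461 and 226 to 566, and the 2 erythroid ones to 248 to 1286 and 246 to 2282, with none called. Of 12 stromal and endothelial markers 11 were higher in Dex, with a median difference of 0.46 and sums of 3944 to 5468 and 5021 to 6848. Over all named genes, 6953 of 13567 were higher. Pdgfra and Dcn among the 12 were above background on no array, and Epcam and Col3a1 on some arrays only. The endothelial gene Pecam1 was called (1.36, adjusted p = 0.0208). It alone had an unadjusted limma p below 0.05, and it alone had Dex and Control arrays that did not overlap. These sums add signals of different probes and mostly follow the brightest of them. Cd3d and Cd3g gave 79.8% of the thymocyte sum, Lyz2 76.8% of the macrophage, Blnk 73.4% of the B cell, Hbb 61.6% of the erythroid and Krt18 76.0% of the stromal and endothelial sum. The part of these cells in the results below was not tested.

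Among the 10 genes, Ccnd3 fell and Cdk6 rose in Dex, and the other 8 did not pass the adjusted test. Over all named genes, 0.31% were called lower and 0.73% higher. With the replicate number as a block, neither Ccnd3 nor Cdk6 was called (limma adjusted p = 0.0634 and 0.0924). The 10 genes had a median difference of -0.20, against 0.01 over all named genes, and 6 of them were lower and 4 higher. At an unadjusted limma p below 0.05, 4 were lower and 1 was higher, where 5.63% and 6.45% of all named genes were. All Dex arrays lay below all Control arrays for 4 genes (Ccnd3, Cdkn1b, Cdkn2c and Cdkn2d) and above them for 2 (Cdk6 and Ccnd2), against 5.69% and 5.76% of all named genes.

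**Figure D1:**
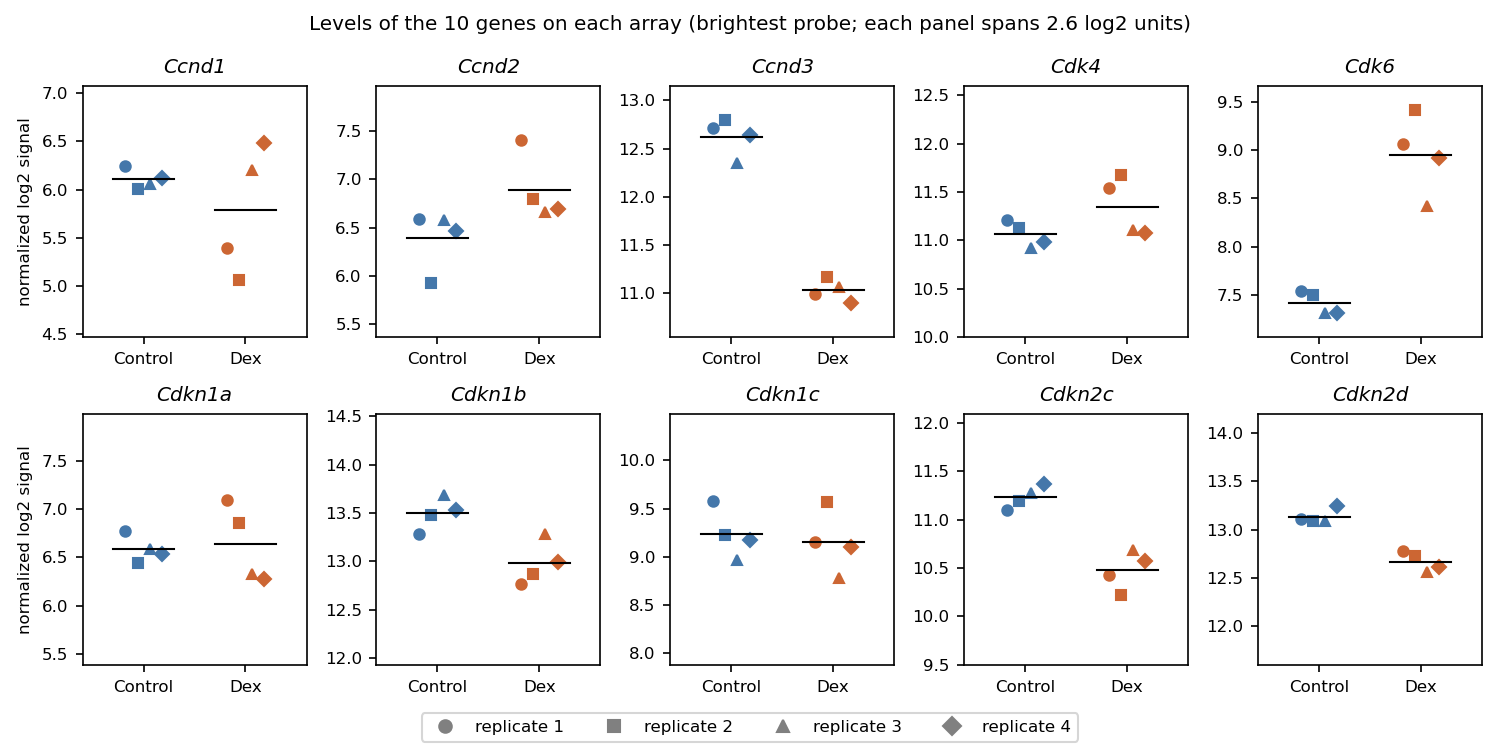
Normalized log2 signal (vertical axis) of the brightest probe of each gene on the 4 Control and 4 Dex arrays. Each point is an array, its shape the replicate number, and the black line the group mean. The Dex arrays sit apart from the Control arrays for Ccnd3, Cdkn1b, Cdkn2c and Cdkn2d (below) and for Cdk6 and Ccnd2 (above).

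Ccnd3, the D type cyclin gene of the expanding thymocyte, was at 12.71, 12.79, 12.35 and 12.65 on the Control arrays 1 to 4. On the Dex arrays 1 to 4 it was at 10.99, 11.17, 11.07 and 10.90. The groups did not overlap, and the lowest Control array, Control 3, lay well above the highest Dex array. The mean went from 12.62 ± 0.19 (SD, n = 4) in Control to 11.03 ± 0.11 (SD, n = 4) in Dex. This is a log2 difference of -1.59 (SE 0.16, 95% interval -1.96 to -1.23, limma adjusted p = 0.00506), or 33.2% of the Control signal. By size it was the 11th of the 42 genes called lower. With the replicate number as a block the difference was the same and the adjusted p was 0.0634, above the threshold, at which 0.273% of all named genes were called. With arrays scaled to their 75th percentile in place of quantile normalization it was 0.0743, also above the threshold. On the 1 slide that held both groups, with Control 1 and Dex 3, the difference was -1.64. That value sets a single array against another, and the fit with slide as a fixed block called 1 of all 41012 probes, so only its size is given here and below. In bulk RNA, fewer cells that express a gene and less of its RNA per cell cannot be told apart.

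The position of this Ccnd3 probe limits what it can be said to read. The array design places 55 bases of it on rn3 at chr8:77092615-77092669, while the RefSeq table of build GRCr8 has Ccnd3 on chromosome 9. The probe of Cdkn2d has no position. The other 15 member probes with a position lie on the chromosome of their gene, and over the array 71 of 10410 probes (0.682%) lie on another one. Whether the probe reads a second copy was not tested, and no other probe on the array carries the name Ccnd3.

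Ccnd2, a second D type cyclin gene, was at 6.59, 5.92, 6.58 and 6.46 on the Control arrays and at 7.41, 6.80, 6.66 and 6.70 on the Dex arrays. All Dex arrays were above all Control arrays, by a narrow margin on Dex 3. The difference of 0.50 (SE 0.24, 95% interval -0.05 to 1.05, adjusted p = 0.522) was not called. It was 0.29 without Dex 1 and Dex 2 and 0.07 on the slide with both groups. Ccnd1, the third of the D type cyclins, was at 6.24, 6.01, 6.05 and 6.12 on the Control arrays and at 5.40, 5.06, 6.20 and 6.48 on the Dex arrays. Dex 1 and Dex 2 lay below all Control arrays while Dex 4 lay above them. The difference was -0.32 (95% interval -1.04 to 0.41, adjusted p = 0.785), and without Dex 1 and Dex 2 it was 0.24. The dimmer probe of Ccnd1 gave 0.05 (adjusted p = 0.956), so neither sign was shared by both probes.

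Cdk6, a kinase partner of the D type cyclins, was at 7.54, 7.50, 7.31 and 7.31 on the Control arrays. On the Dex arrays it was at 9.06, 9.41, 8.42 and 8.92. The groups did not overlap, and Dex 3 was the lowest of the Dex arrays. The mean went from 7.42 ± 0.12 (SD, n = 4) to 8.95 ± 0.41 (SD, n = 4), a log2 difference of 1.54 (SE 0.22, 95% interval 1.02 to 2.05, limma adjusted p = 0.0261). This is a 2.90-fold higher signal, the 59th by size of the 99 genes called higher. With the replicate number as a block the difference was again 1.54 and the adjusted p 0.0924. With 75th percentile scaling they were 1.57 and 0.0657, so both p-values were above the threshold. Leaving out single arrays gave 1.38 to 1.72, with a call in 1 of 8 fits, that without Dex 3 (adjusted p = 0.0161). Without Dex 1 and Dex 2 the difference was 1.25 (adjusted p = 0.0184), and on the slide with both groups it was 0.88.

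Cdk4, the other kinase, has a pair of probes that read the same pattern. Its brighter probe was at 11.21, 11.13, 10.92 and 10.98 on the Control arrays and at 11.54, 11.67, 11.11 and 11.08 on the Dex arrays. Dex 1 and Dex 2 were above all Control arrays, while Dex 3 and Dex 4 lay among them. The differences were 0.29 (95% interval -0.15 to 0.72) and 0.31 (-0.16 to 0.79), each with an adjusted p of 0.674. Without Dex 1 and Dex 2 the brighter probe gave 0.03, and on the slide with both groups -0.10.

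The probes of the kinases, of Ccnd2 and of Cdkn2c are shown because they say which stretch of each message the levels above and below come from. Each is written 5′ to 3′, as the array holds it.
Cdk6: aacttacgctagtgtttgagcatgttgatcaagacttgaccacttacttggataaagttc
Cdk4, brighter probe: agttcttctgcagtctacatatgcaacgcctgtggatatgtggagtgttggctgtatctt
Cdk4, dimmer probe: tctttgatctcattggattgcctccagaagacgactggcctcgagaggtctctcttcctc
Ccnd2: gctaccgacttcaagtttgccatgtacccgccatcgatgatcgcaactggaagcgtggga
Cdkn2c: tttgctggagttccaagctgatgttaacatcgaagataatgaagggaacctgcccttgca
On rn3 the Cdk6 probe lies on chr4:27571169-27571228 and the Cdkn2c probe on chr5:131018328-131018387, both on the minus strand. The Ccnd2 probe spans 6825 bases on rn3 (chr4:163779968-163786792) and the dimmer Cdk4 probe 148 bases (chr7:67038854-67039001), more than their own 60 bases. The brighter Cdk4 probe lies on chr7:67038023-67038082.

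Of the INK4 inhibitor genes, Cdkn2c and Cdkn2d had all Dex arrays below all Control arrays, and neither was called. The other INK4 genes, Cdkn2a and Cdkn2b, belong to the G1/S list described below and had overlapping groups, with differences of 0.34 (limma adjusted p = 0.654) and 0.24 (adjusted p = 0.810). The probe of Cdkn2b was above background on 3 Control and 2 Dex arrays. Cdkn2c was at 11.10, 11.19, 11.27 and 11.37 on the Control arrays and at 10.43, 10.22, 10.69 and 10.57 on the Dex arrays. The difference was -0.75 (SE 0.16, 95% interval -1.12 to -0.39, limma adjusted p = 0.103), or 59.3% of the Control signal. Without Dex 1 and Dex 2 it was -0.60 and was called (adjusted p = 0.0398), in the fit that called 7143 of all probes against 319 with all arrays. With all arrays it was called under normexp background correction (adjusted p = 0.0176) and with dim probes left out (0.0462). It was also called with the slide as a random block (0.0108), which called 1838 of all probes while slide and group are largely confounded. Cdkn2c was not called with 75th percentile scaling (0.194), the replicate block (0.221) or any of the 8 fits without a single array (0.110 to 0.327). In total, 4 of the 16 alternative settings called it. On the slide with both groups the difference was -0.41, and the random block moved it further away, to -0.81. Cdkn2d was at 13.11, 13.09, 13.09 and 13.24 on the Control arrays and at 12.78, 12.72, 12.56 and 12.62 on the Dex arrays. Control 4 stood above the other Control arrays, and the Dex arrays lay close together. The difference was -0.46 (SE 0.14, 95% interval -0.77 to -0.14, limma adjusted p = 0.254). In that same fit without Dex 1 and Dex 2 it was -0.54 and was called (adjusted p = 0.0412). With all arrays it was called under normexp background correction (0.0135). These were 2 of the 16 alternative settings, and the others did not call it. Among them, 75th percentile scaling gave an adjusted p of 0.948, the replicate block 0.349 and the 8 fits without a single array 0.328 to 0.561. On the slide with both groups the difference was -0.55.

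**Figure D2:**
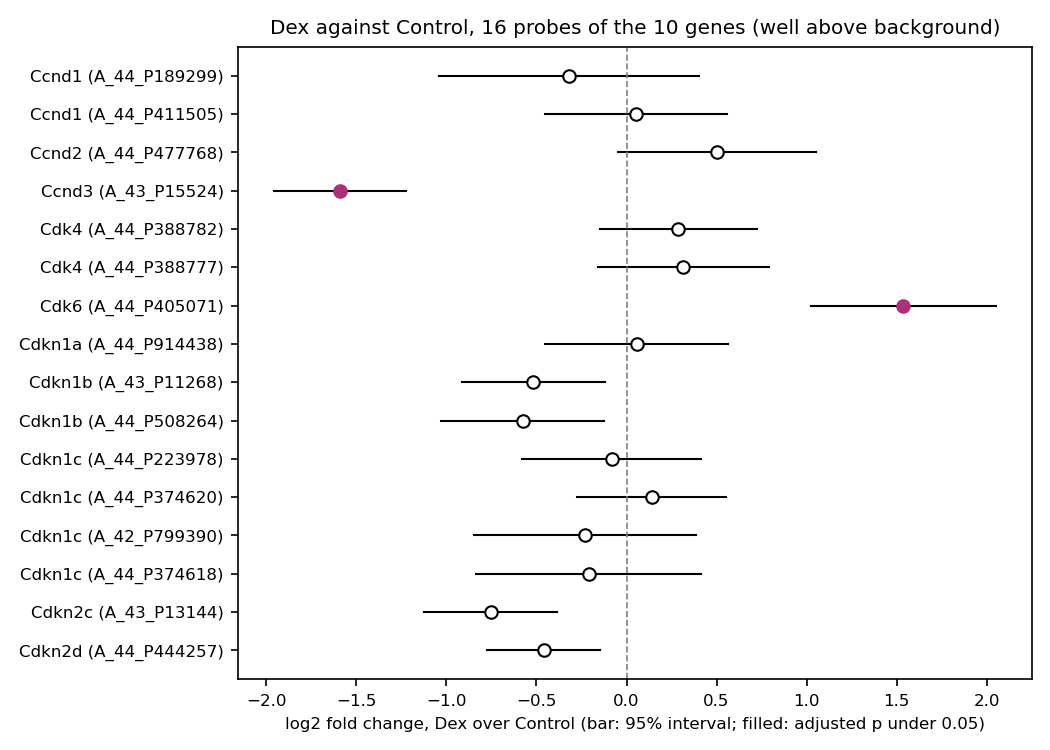
Log2 fold change of Dex over Control (horizontal axis) for the 16 probes of the 10 genes that were well above background, each named by gene and array probe. Points are limma estimates, bars their 95% intervals, and filled points have an adjusted p below 0.05. Ccnd3 (-1.59) and Cdk6 (1.54) stand apart from the other probes, and both Cdkn1b probes lie below 0.

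Of the CIP/KIP inhibitors, Cdkn1b had all Dex arrays below all Control arrays on both of its probes, and was not called. The brighter probe, printed 10 times on each array, was at 13.29, 13.48, 13.69 and 13.53 on the Control arrays and at 12.77, 12.87, 13.28 and 12.99 on the Dex arrays. Dex 3 lay just below Control 1, so the gap between the groups was small. The differences were -0.52 (SE 0.17, 95% interval -0.91 to -0.12, adjusted p = 0.320) and -0.58 (SE 0.20, adjusted p = 0.330). Without Dex 1 and Dex 2 the brighter probe differed by -0.36, and on the slide with both groups by -0.0047.

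Cdkn1a, the CIP/KIP inhibitor gene best known as a target of p53, was at 6.77, 6.44, 6.59 and 6.53 on the Control arrays and at 7.10, 6.85, 6.33 and 6.28 on the Dex arrays. Dex 1 and Dex 2 were above all Control arrays and Dex 3 and Dex 4 below them. The difference of 0.06 (95% interval -0.45 to 0.57, adjusted p = 0.955) was therefore a mean over arrays that went both ways, and without Dex 1 and Dex 2 it was -0.28. The dim probe of Cdkn1a was not well above background in either group, so no fold is given for it. Cdkn1c has 4 probes, with differences of -0.23 to 0.14 and adjusted p-values of 0.819 to 0.926. Its brightest probe was at 8.97 to 9.58 on the Control arrays and at 8.78 to 9.57 on the Dex arrays, and the groups overlapped on all 4 probes. This probe differed by -0.08 over all arrays, by -0.29 without Dex 1 and Dex 2, and by -0.79 on the slide with both groups. On rn3 only 26 bases of this brightest probe have a position.

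The signal to noise statistic of the study's methods, the difference of the means over the sum of the SDs, called more of these genes. At a one-tailed p of 0.01 and a fold of 1.2 it called Ccnd3, Cdkn1b, Cdkn2c and Cdkn2d lower and Cdk6 higher. By this rule 570 named genes (4.2%) were called lower and 617 (4.55%) higher. These calls used all 8 arrays, while the paper states 3 biological replicates and reports fewer genes in total. They are therefore not the paper's own calls. The one-tailed p was 0.00592 for Cdkn1b, 0.000589 for Cdkn2c and 0.000427 for Cdkn2d, by permutation of the arrays pooled over probes.

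**Figure D3:**
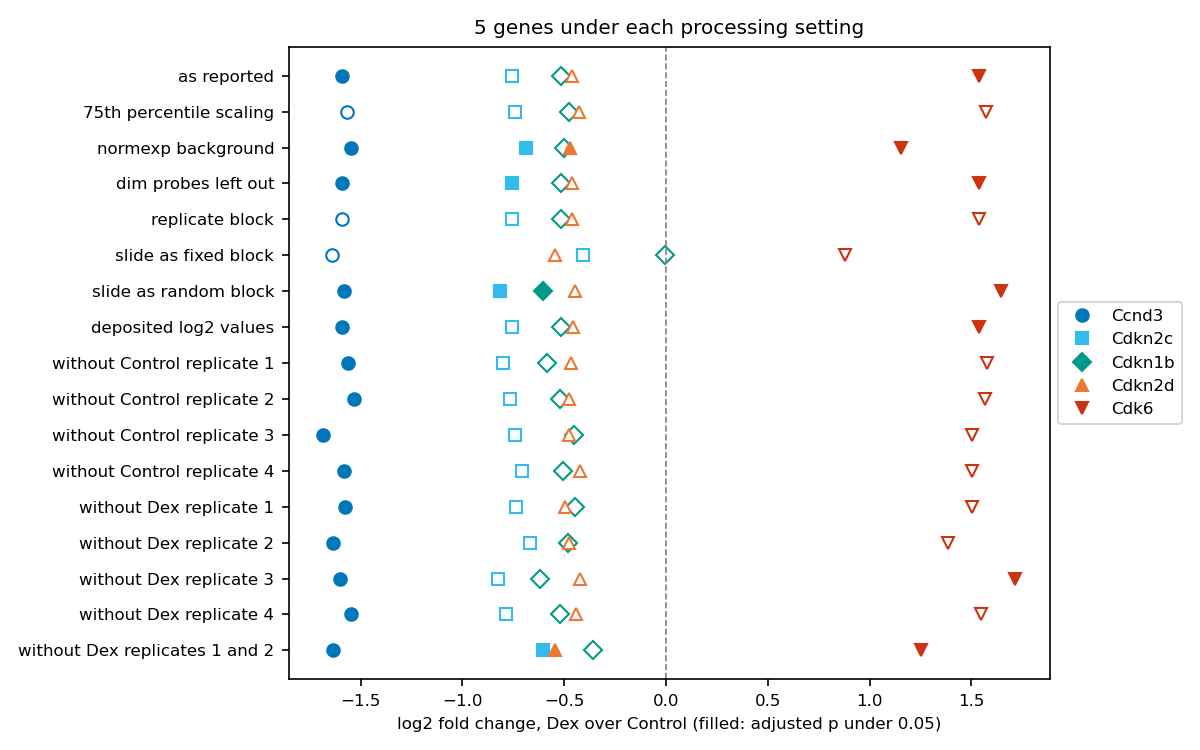
Log2 fold change of Dex over Control (horizontal axis) of 5 genes under each processing setting (vertical axis). Filled points have an adjusted limma p below 0.05. Ccnd3 stayed between -1.68 and -1.53 over all settings, while Cdk6 ranged from 0.88 to 1.72 and was called in 6 of the 16 settings other than that reported.

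The genes around the retinoblastoma step were then described, from a list of 34 that holds E2F factors and their partners, cyclins E and A, Cdk2, factors of replication licensing and the INK4 genes Cdkn2a and Cdkn2b, among others. Of these, 30 were found on the array by name, and Rbl1, E2f2, E2f4 and Fbxw7 were not analysed here. None was called, 23 were lower and 7 higher, and their median difference was -0.26 against 0.01 over all named genes. At an unadjusted p below 0.05, 10 were lower and none was higher, where 5.63% and 6.45% of all named genes were. All Dex arrays lay below all Control arrays for 11 and above them for none, against 5.69% and 5.76% of all named genes. Without Dex 1 and Dex 2, 9 of the 30 were called lower and none higher, in a fit that called 7143 of all 41012 probes.

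The 5 with the lowest p were all lower without passing the adjusted test. Tfdp1, the dimerization partner of E2F factors, differed by -0.70 (SE 0.15, adjusted p = 0.100), and Tfdp2, a second such partner, by -0.58 (SE 0.15, adjusted p = 0.183). Ccne1, the cyclin E1 that drives entry into S phase with Cdk2, differed by -0.78 (SE 0.18, adjusted p = 0.142). Cdk2 itself differed by -0.65 (SE 0.20, adjusted p = 0.270). Cdc6, which loads the replicative helicase at origins, differed by -0.55 (SE 0.15, adjusted p = 0.212). The list's lowest value was that of Cdc25a, a phosphatase that activates Cdk2, with -1.57 and an SE of 1.31, on a probe above background on 3 Control and 2 Dex arrays.

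**Figure D4:**
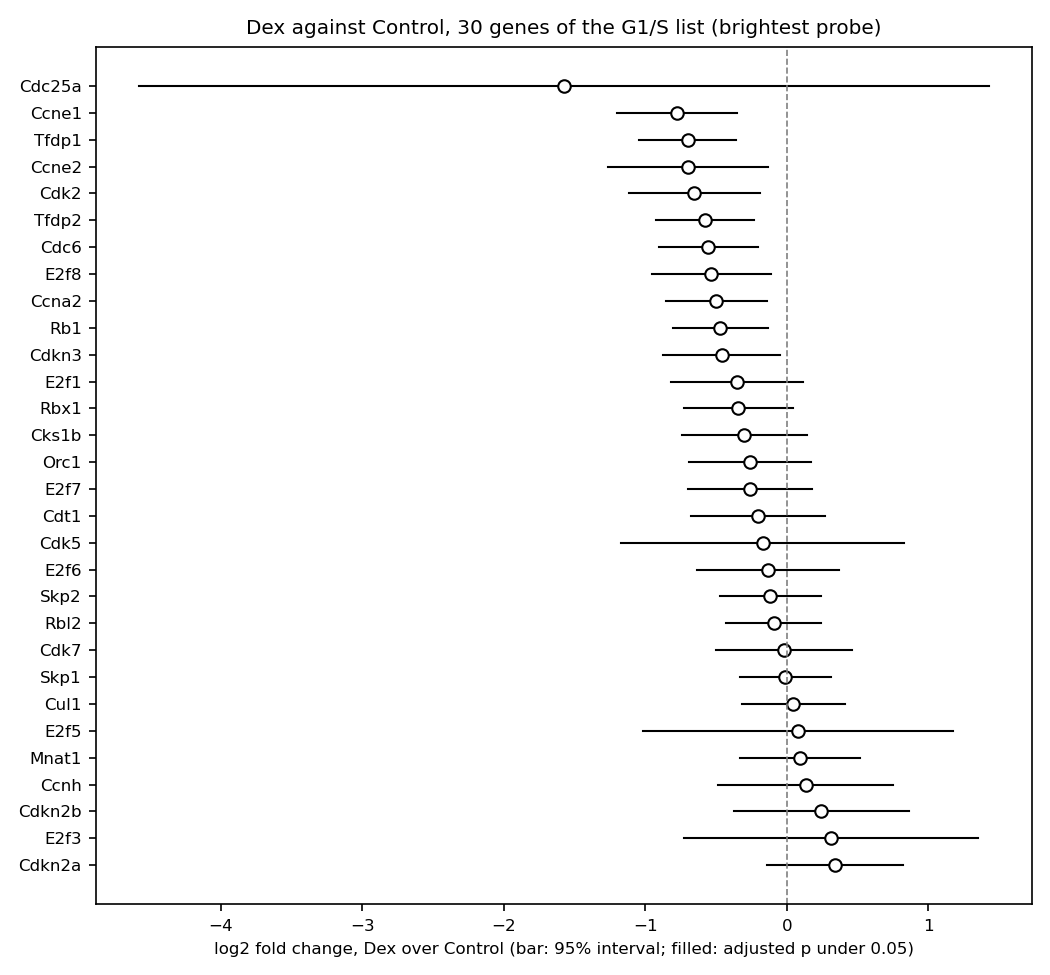
Log2 fold change of Dex over Control (horizontal axis) for the 30 genes of the G1/S list, by brightest probe, in order of size. Points are limma estimates and bars their 95% intervals, and no point is filled because none had an adjusted p below 0.05. The points of 23 genes lie below 0, and Cdc25a has the widest interval.

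The genes whose level followed that of Ccnd3 most closely over the 8 arrays were Casp2, Acat1, Ttc5, Vps37b and Ptpn7, with Pearson correlations of 0.985 to 0.991 among 8934 genes above background on all arrays. The 8 points share the group difference, so these values describe a pattern and carry no p. Their own log2 differences were -0.76 to -0.30, smaller than that of Ccnd3, and none was called.

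The RefSeq promoter table of GRCr8 holds 6 of the 10 genes, namely Ccnd3, Cdk4, Cdkn1a, Cdkn1b, Cdkn2c and Cdkn2d. Cdk6, Ccnd1, Ccnd2 and Cdkn1c have no entry among these promoters. In the 250 bases before each start, 4 short motifs were searched on both strands. They were a single arm of the glucocorticoid response element (AGAACA), E2F sites (TTTCCCGC or TTTGGCGC), the E-box that Myc binds (CACGTG) and a forkhead site (TGTTTAC). Among all 33469 windows of this length, 17.52% held that arm, 1.21% an E2F site, 5.59% the E-box and 3.21% the forkhead site. Cdk4 held the E-box 3 times, and none of the 6 windows held any of the other motifs. The window of Ccnd3, which fell, and that of Cdk4 are shown side by side, each on the strand of its gene and with E-boxes in capitals.
Ccnd3, chr9:20897876-20898125, minus strand: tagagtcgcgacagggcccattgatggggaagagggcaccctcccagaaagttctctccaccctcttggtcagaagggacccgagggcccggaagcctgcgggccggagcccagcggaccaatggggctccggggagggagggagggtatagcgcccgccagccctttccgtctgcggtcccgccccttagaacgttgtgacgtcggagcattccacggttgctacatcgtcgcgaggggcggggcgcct
Cdk4, chr7:64771203-64771452, plus strand: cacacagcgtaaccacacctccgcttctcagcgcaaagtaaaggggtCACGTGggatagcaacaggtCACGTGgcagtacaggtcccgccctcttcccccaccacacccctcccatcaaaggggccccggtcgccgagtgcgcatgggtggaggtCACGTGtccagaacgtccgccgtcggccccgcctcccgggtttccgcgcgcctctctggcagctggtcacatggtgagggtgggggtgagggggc
A match of letters is a description and no proof of a bound site, and the lack of one says nothing about a factor.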

How the data were processed

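RNA of the 4 samples labeled Control and the 4 labeled Dex was marked with Cy3 and hybridized to 1-color Agilent arrays. Spot intensities were read by the authors with Agilent Feature Extraction (version 9.5.3.1) under default settings for 1 color. The deposited intensities are therefore background-subtracted but not normalized between arrays, and come with flags (0 or 1) for signal well above background, for saturation and for outliers. A table of log2 values deposited by the authors had been quantile normalized, with median polish over the spots of a probe. Here these steps were repeated on the intensities after outlier spots were removed, which left 16 missing values. The result correlated with the deposited log2 values at 0.999999 or more on each array. No spot was saturated.

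limma (version 3.58.1, R version 4.3.3) was the two-sided test over all 41012 probes (lmFit, eBayes, no covariate), and p-values were adjusted by Benjamini-Hochberg. The number of arrays limits the precision. Named genes are the 10 members, the 5 genes of the G1/S list with the lowest p, the 5 genes most like Ccnd3, and Tsc22d3, Fkbp5 and Per1. Cdc25a, Cdkn2a, Cdkn2b and the marker genes were named after their values were seen. The members, lists and motifs were chosen with earlier results of these data known. The methods state 3 biological replicates and do not name the arrays, so all 8 were used. Deviations from the group means correlated between arrays of the same replicate number at 0.397, 0.129, 0.550 and 0.184, all above 0.1. The main test leaves the numbers out, as the methods do, and the blocked fit stands beside the results whose call it ends. Some arrays of unlike number correlated as highly, such as Control 1 with Dex 2 at 0.401. Slide 1 held Control 1 and Dex 3, slide 2 the other Control arrays and slide 3 the other Dex arrays, so slide and group are largely confounded. Alternatives were 75th percentile scaling, normexp background with an offset of 50, leaving out dim probes, the replicate and slide blocks, the deposited values, the signal to noise statistic, any probe of a gene, and leaving out each array.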

Additional observations from a re-analysis of the deposited data

Results flagged for a closer look

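Among 44 groups of 4 arrays tested (17 member probes and 5 probes of the G1/S list, in Control and in Dex), 1 array stood far from the others of its group. It was Control 4 for Cdkn2d, at 13.24 against 13.11 for the nearest and 13.09 for the lowest Control array, a gap of 0.867 of the group's range. Chance alone flags about 1 in 20 such groups. Without Control replicate 4 the difference of Cdkn2d was -0.42, and it was not called with or without this array. The cause was not tested.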

How the results depend on the processing

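The sign of the difference held in all 16 alternative settings for Ccnd2, Ccnd3, Cdk6, Cdkn1b, Cdkn2c and Cdkn2d, and changed in at least 1 for the uncalled Ccnd1, Cdk4, Cdkn1a and Cdkn1c. The number of the 10 genes called higher was 1, and it was 0 with 75th percentile scaling, the replicate block or the slide as fixed block, and 0 to 1 when single arrays were left out. It was 1 only without Dex 3 among those 8 fits. The number called lower was 1. It was 0 with 75th percentile scaling, the replicate block or the slide as fixed block, 2 with dim probes left out (Ccnd3 and Cdkn2c), 3 with normexp background (these and Cdkn2d), 3 with the slide as random block (Ccnd3, Cdkn2c and Cdkn1b), 4 with the signal to noise statistic, and 1 in each fit without a single array. Without Dex replicates 1 and 2, a setting chosen after seeing the data, it was 3. Of the G1/S list 0 were called lower, against 1 with dim probes left out, 3 with normexp background, 6 with the slide as random block, 8 with the signal to noise statistic and 9 without Dex replicates 1 and 2, and none was called higher in any setting.

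With 75th percentile scaling Ccnd3 had an adjusted p of 0.0743 and Cdk6 of 0.0657. The replicate block, which treats Control and Dex of a number as a pair, ended both calls (0.0634 and 0.0924) and changed no other call among the 10 genes. Over all probes it called 81, against 319 without it, 166 with 75th percentile scaling, 562 with dim probes left out, 915 with normexp background (497 higher and 418 lower, against 231 and 88), 1838 with the slide as random block and 1 with it as fixed block. Fits without 1 array called 96 to 249, and that without Dex replicates 1 and 2 called 7143. The fixed slide block rests on Control 1 and Dex 3 alone. With the slide as random block, the difference of each of the 10 genes moved away from its value on that shared slide. For Cdkn1b it was -0.60, against -0.52 without a block and -0.0047 on the shared slide. The causes of these differences were not tested.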
